A study of Mus musculus with 7 samples.

Results

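The miR-15, miR-16 and miR-195 family was followed through small RNA libraries of sorted embryonic mouse spinal cells. Its 5 members were taken by name: mmu-miR-15a-5p, mmu-miR-15b-5p, mmu-miR-15b-3p, mmu-miR-16-5p and mmu-miR-195a-5p, of 1908 mature miRNAs listed in each of the deposited tables. At E10.5, spinal cords of Hb9::gfp embryos gave 2 libraries of GFP-positive motoneurons and 2 libraries of GFP-negative, non-motoneuron spinal cells, so both groups carry the same transgene. At E12.5 there was 1 library each of GFP-positive motoneurons (Hb9::gfp), V2a interneurons (tdTomato-positive cells, Chx10::cre;Rosa26::LSL::tdTomato) and V3 interneurons (tdTomato-positive cells, Sim1::cre;Rosa26::LSL::tdTomato). At E12.5 cell type thus changes together with mouse line, and between motoneurons and interneurons also with reporter, and these cannot be told apart. In the Cre lines tdTomato stays on in any cell that has once expressed the Cre, and the GFP-negative fraction is whatever the Hb9 reporter does not mark. E10.5 levels are in RPM, the reads of a miRNA scaled to a fixed library total, and E12.5 levels are in TPM, which also allows for mature length. The tables were scaled separately, so levels were compared only within a stage.

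MicroRNAs of this family guide Argonaute proteins to messenger RNAs that pair with their seed, bases 2 to 8 counted from the 5′ end. They are known for repressing cyclins D and E, other G1-phase regulators and the anti-apoptotic gene Bcl2, and for slowing entry into the cell cycle. Each hairpin precursor can give a 5p and a 3p strand, of which usually one is retained as the guide. In mouse, miR-15a and miR-16 come from one hairpin pair within the long non-coding host gene Dleu2, and miR-15b and miR-16 come from another pair within Smc4, which encodes a condensin subunit. miR-195a is paired with miR-497.

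The mature sequences are shown because they decide which members share targets and which reads can be told apart. They are the RefSeq sequences on GRCm38.p6, written 5′ to 3′ with the seed in capitals.
mmu-miR-15a-5p: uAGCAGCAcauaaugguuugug
mmu-miR-15b-5p: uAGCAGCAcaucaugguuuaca
mmu-miR-16-5p: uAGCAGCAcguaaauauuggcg
mmu-miR-195a-5p: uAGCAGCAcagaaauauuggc
mmu-miR-15b-3p: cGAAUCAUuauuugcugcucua
The first 4 share the seed AGCAGCA, and mmu-miR-15b-3p, the opposite strand of the Mir15b hairpin, has the seed GAAUCAU. Sequence identity beyond the seed was uneven. mmu-miR-15a-5p and mmu-miR-15b-5p had the same base at 18 of 22 positions, and mmu-miR-15b-5p and mmu-miR-16-5p at 14 of 22. mmu-miR-16-5p and mmu-miR-195a-5p had the same base at 19 of 21 positions, and the E10.5 table puts them in one bundle of 2 rows, the authors' grouping of rows that can share reads. Values of that pair are therefore uncertain, most of all for the rare mmu-miR-195a-5p. The other members each had a bundle of their own.

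Of the 1607 rows that could be matched to a RefSeq sequence, 10 carried the seed AGCAGCA. Beside the 4 guide strands these were miR-322-5p, miR-497-5p, miR-195b, miR-6342, miR-6353 and miR-6419. Both miR-195b and miR-6353 were at 0 reads in all 7 libraries.

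The genome positions, on GRCm38, place the common members at several loci. Mir15a (chr14:61632027-61632110, minus strand) lies in an intron of Dleu2, and Mir16-1 (chr14:61631880-61631972, minus strand) overlaps an annotated Dleu2 exon, with 54 bases between the hairpins. Mir15b (chr3:69009772-69009835, plus strand) and Mir16-2 (chr3:69009902-69009996, plus strand) lie in an intron of Smc4, 66 bases apart. Mir195a (chr11:70235042-70235135, plus strand) overlaps no other annotated gene and lies 241 bases from Mir497. mmu-miR-16-5p is identical from Mir16-1 and Mir16-2, so its reads cannot be assigned to a locus, whereas the 3p strands of those hairpins differ. The hairpins below are shown because their opposite strands carry results described further on, with both mature strands in capitals.
Mir15b: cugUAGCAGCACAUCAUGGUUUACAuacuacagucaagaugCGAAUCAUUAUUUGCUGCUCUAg
Mir16-1: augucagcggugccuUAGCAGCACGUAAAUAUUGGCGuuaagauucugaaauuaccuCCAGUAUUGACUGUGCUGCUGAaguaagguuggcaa

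Library depth was 493228 to 802724 reads at E10.5 and 3603418 to 4604532 reads at E12.5, as recovered from the value of 1 read. Where no read was counted, up to 3 reads remain possible. That limit stands at 3.74 to 6.08 RPM in the E10.5 libraries and at 0.667 to 0.844 TPM in the E12.5 libraries. miR-218-5p, the motoneuron marker of the series, stood at 177885 and 200305 RPM in E10.5 motoneurons against 6623 and 7315 RPM in GFP-negative cells. Whether replicates are separate litters, sorts or only libraries is not in the labels. The p-values thus rest on library-to-library spread that may be technical. In sorted populations of this kind, fewer cells that carry a miRNA and less of it per cell cannot be told apart.

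At E10.5 mmu-miR-16-5p was called lower in motoneurons than in GFP-negative cells, and mmu-miR-15b-5p was called lower close to the threshold. mmu-miR-15a-5p and mmu-miR-15b-3p did not pass the test, and mmu-miR-195a-5p was too scarce to test. All 5 members lay lower in both motoneuron libraries than in either GFP-negative library. Of the 492 miRNAs abundant enough to test, 48.6% showed that order, among them the 4 members that could be tested. The limma test (adjusted over those 492, threshold 0.05) called 2 of these 4 lower and none higher, while 30.7% of all tested miRNAs were called lower. Those were 151 lower against 57 higher, a split that became 116 against 94 with median-of-ratios scaling. The median log2 fold change of the 4 tested members was -1.07, against -0.34 over all tested miRNAs. With median-of-ratios scaling, which brings the median of all miRNAs to -0.0038, the 4 members were still each lower, with a median of -0.73.

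mmu-miR-16-5p was the most abundant member in every library. It was measured at 809 and 657 RPM in GFP-negative cells and at 310.2 and 264 RPM in motoneurons, from 629, 354, 249 and 130 reads. The lower GFP-negative library held more than 2 times the level of the higher motoneuron library. The means were 733 ± 107 RPM (SD, n = 2) and 287 ± 33.0 RPM (SD, n = 2), with a log2 fold change of -1.35 (SE 0.22). The adjusted p from limma was 0.00346. mmu-miR-16-5p passed the test in all 12 alternative analyses, with log2 fold changes between -1.50 and -0.97. Among miRNAs above 0 it ranked 114 of 977 and 126 of 962 in the GFP-negative libraries and 147 of 960 and 157 of 886 in motoneurons.

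mmu-miR-15b-5p, the guide strand of the Smc4 locus, was next in abundance. Levels were 175 and 176 RPM in GFP-negative cells and 101 and 87.2 RPM in motoneurons. The GFP-negative libraries were almost equal, and both motoneuron libraries lay well below them. The mean was 1.87-fold lower in motoneurons (log2 fold change -0.90, SE 0.26, adjusted p = 0.0308 by limma). This call was close to the threshold: it was lost with median-of-ratios scaling (adjusted p = 0.132), with totals taken without the 5 most abundant miRNAs (adjusted p = 0.152), without the abundance filter (adjusted p = 0.0579) and when any 1 of the 4 libraries was left out (adjusted p = 0.0544 to 0.0925).

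mmu-miR-15b-3p, from the same hairpin, was measured at 56.6 and 42.7 RPM in GFP-negative cells and at 23.7 and 30.4 RPM in motoneurons. The groups did not overlap, but the log2 fold change of -0.85 (SE 0.37) did not pass the test (limma adjusted p = 0.106). mmu-miR-15a-5p, the guide strand of the Dleu2 locus beside miR-16, was scarcer, at 39.9 and 27.9 RPM against 9.97 and 18.3 RPM. Only 31, 15, 8 and 9 reads stood behind these values. Its log2 fold change of -1.24 (SE 0.46) missed the threshold (limma adjusted p = 0.0669) and passed only when the second motoneuron library, the higher of the pair, was left out (adjusted p = 0.0464).

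mmu-miR-195a-5p was the rarest member and fell below the abundance filter, so it was not tested. It had 8 and 8 reads in GFP-negative cells (10.3 and 14.9 RPM) and 2 and 2 reads in motoneurons (2.49 and 4.05 RPM). The motoneuron values are under the level that 3 reads would give, and the reads may be shared with mmu-miR-16-5p.

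**Figure D1:**
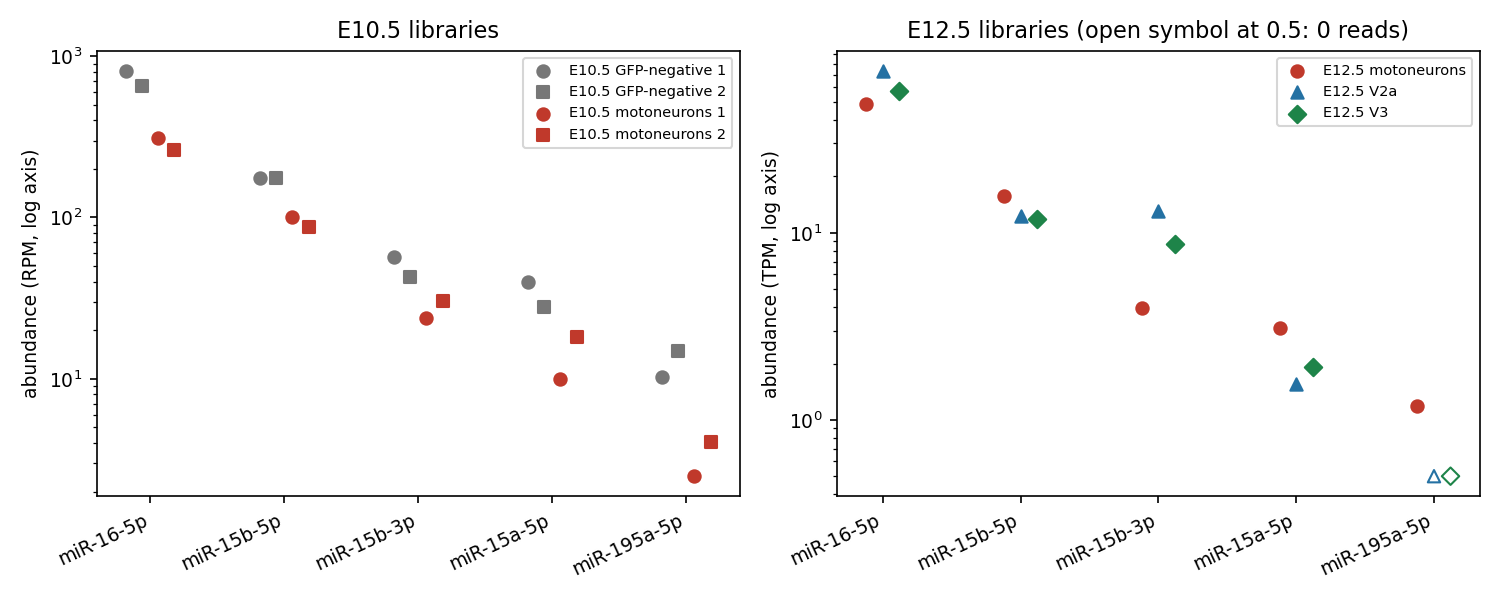
Level of each member in every library on log axes, in RPM at E10.5 (left) and in TPM at E12.5 (right), with 1 point per library. At E10.5 the red motoneuron points lie below the grey GFP-negative points for all 5 members, while at E12.5 the order of motoneuron, V2a and V3 points changes from member to member.

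**Figure D2:**
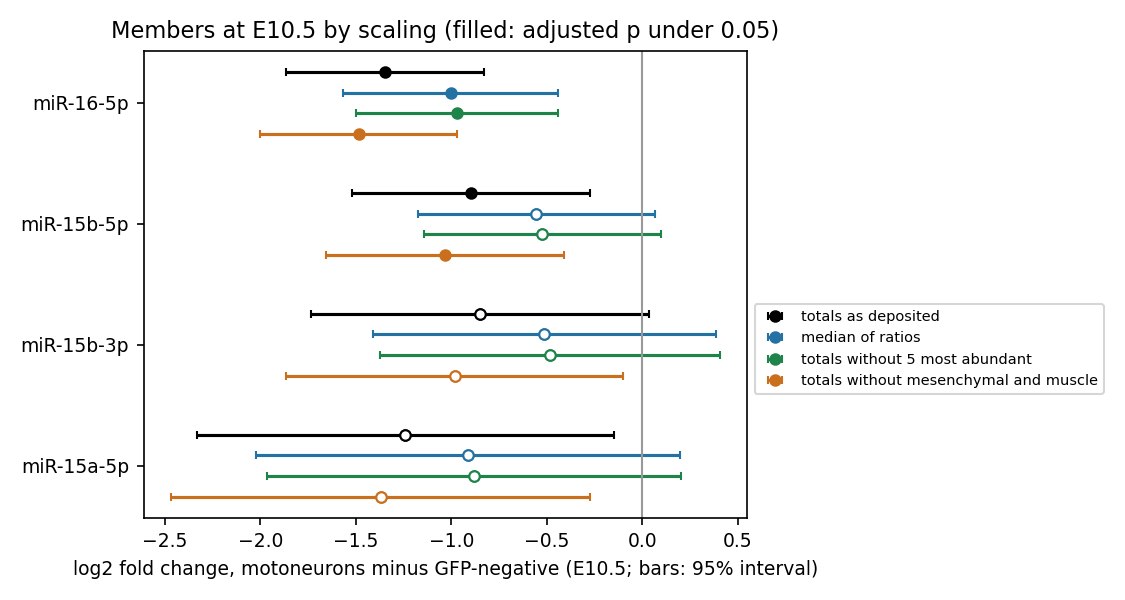
Log2 fold change of the 4 tested members at E10.5 with 95% intervals from limma, under the deposited totals and 3 other scalings, with filled points for an adjusted p under 0.05. mmu-miR-16-5p is filled under each scaling, mmu-miR-15b-5p under 2 of the 4, and the other members under none.

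GFP-negative cells also carried more miRNA of some other tissues. The summed level of 10 mesenchymal miRNAs was 81413 and 94290 RPM in GFP-negative cells against 1571 and 424 RPM in motoneurons, and all 10 were called lower in motoneurons. None of the 10 was at 0 in GFP-negative cells. The 4 muscle miRNAs summed to 4192 and 3796 RPM against 355 and 130 RPM, with 3 of 3 tested members called lower. The 2 endothelial miRNAs summed to 977 and 676 RPM against 508 and 295 RPM. Of 9 blood miRNAs 8 could be matched to a row by name, and their sums were alike, at 113 and 113 RPM against 114 and 84.1 RPM. Only 1 of these could be tested, miR-486-5p, and it was not called. With means of 76.9 RPM in GFP-negative cells and 85.5 RPM in motoneurons, it made up most of the sums. miR-3107-5p, a row not counted in these sums, had the same means as miR-486-5p and was not called either. Of the 8 rows, 1 and 2 were at 0 in the GFP-negative libraries and 4 and 4 in the motoneuron libraries. The part of mesenchymal, muscle, endothelial and blood cells in the members' differences was not tested. Taking the mesenchymal and muscle miRNAs out of the library totals left mmu-miR-16-5p at -1.48 and mmu-miR-15b-5p at -1.03 on the log2 scale, both called. This rescaling lowers the fold changes of all miRNAs nearly alike, with their median going from -0.34 to -0.47. It cannot show whether reads of the members came from such cells. The 5 pan-neuronal miRNAs summed to 25723 and 21799 RPM in GFP-negative cells against 27175 and 33937 RPM in motoneurons. By limma 2 of them were called higher in motoneurons and 3 were not called. Most of these sums was miR-9-5p, with means of 21331 RPM in GFP-negative cells and 27797 RPM in motoneurons.

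The hairpin partners of the members told the loci apart in part. miR-16-1-3p, which comes from the Dleu2 locus alone, stood at 199 and 306 RPM in GFP-negative cells and at 28.7 and 68.9 RPM in motoneurons. It thus stood above mmu-miR-15b-5p in both GFP-negative libraries and below it in both motoneuron libraries. Its log2 fold change of -2.45 (SE 0.46; adjusted p = 0.00605 by limma) was larger than that of any tested member. miR-16-2-3p, from the Smc4 locus alone, had only 2 and 6 reads in GFP-negative cells and 0 in both motoneuron libraries, and miR-15a-3p had at most 1 read in any library.

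Reads that belong to 1 locus only were then summed within each library. These were miR-15a-5p, miR-15a-3p and miR-16-1-3p for the Dleu2 locus and miR-15b-5p, miR-15b-3p and miR-16-2-3p for the Smc4 locus. The Dleu2 locus gave 50.7% and 59.3% of such reads in GFP-negative cells and 24.2% and 42.6% in motoneurons. The exact 95% interval of the first motoneuron library (17.2% to 32.5%) did not reach that of the second (32.8% to 52.8%), so these replicates differed by more than counting error. The Dleu2-to-Smc4 ratio was 1.03 and 1.46 in GFP-negative cells and 0.320 and 0.741 in motoneurons. The groups did not overlap, with a log2 difference of -1.33, and the two-sided exact permutation p was 0.333, the smallest that 2 against 2 libraries can give. Most Dleu2 reads were the opposite strand miR-16-1-3p, at 155 of 187 and 165 of 181 in GFP-negative cells. In motoneurons it gave 23 of 32 and 34 of 43. Most Smc4 reads at E10.5 were the guide strand miR-15b-5p. Output of a locus and retention of 1 of its strands thus cannot be told apart by these shares.

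A similar order held between the main guide strands. The mmu-miR-16-5p to mmu-miR-15b-5p ratio was 4.63 and 3.73 in GFP-negative cells and 3.07 and 3.02 in motoneurons. This ratio does not depend on how libraries are scaled. The log2 difference was -0.45, again with an exact permutation p of 0.333. Of 6 such within-library ratios compared at E10.5, each had an adjusted p of 1. The ratio of mmu-miR-16-5p to mmu-miR-15a-5p overlapped between the groups, at 20.3 and 23.6 in GFP-negative cells and 31.1 and 14.4 in motoneurons. So did that of mmu-miR-15b-5p to mmu-miR-15a-5p, at 4.39 and 6.33 against 10.1 and 4.78 (exact permutation p = 0.667). The ratio of miR-16-1-3p to mmu-miR-16-5p also overlapped, at 0.246 and 0.466 against 0.0924 and 0.262.

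**Figure D3:**
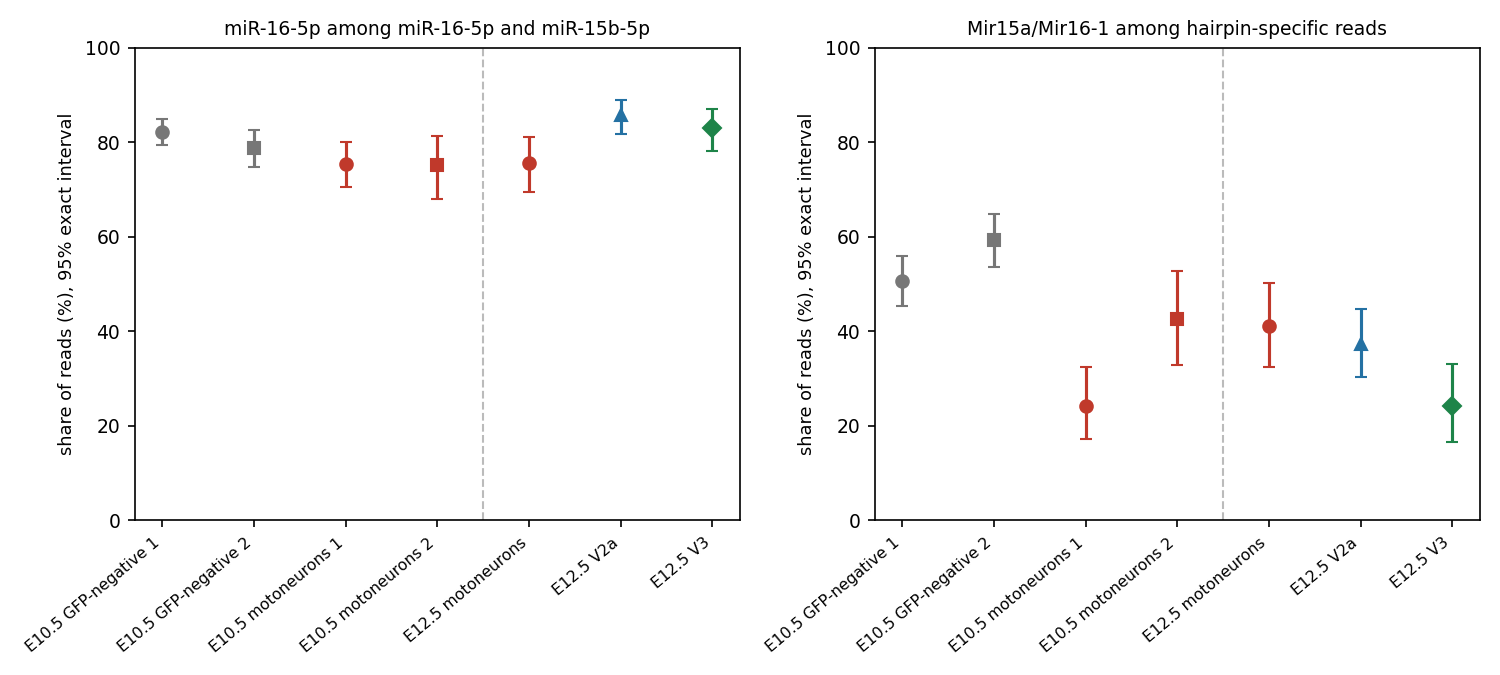
Share of miR-16-5p among miR-16-5p and miR-15b-5p reads (left) and share of the Dleu2 locus (Mir15a and Mir16-1) among reads specific to 1 locus (right), in percent with exact 95% intervals, for each of the 7 libraries. On the left the motoneuron points lie between 75.1% and 75.7% at both stages and the other points between 78.8% and 85.7%. Apart from E12.5 V2a, intervals of the other libraries overlap those of the motoneurons of their stage. At E12.5 there is 1 library per population, and cell type changes together with mouse line. On the right both E10.5 motoneuron points lie below both GFP-negative points.

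Other miRNAs with the same seed were considered next, since they pair with the same seed matches. miR-322-5p, from an X-linked hairpin beside miR-503, was the only one of the 6 non-members past the filter at E10.5. It stood at 132 and 241 RPM in GFP-negative cells against 19.9 and 36.5 RPM in motoneurons (log2 fold change -2.68, SE 0.44, adjusted p = 0.00363 by limma). Its hairpin partner miR-322-3p (-2.07, adjusted p = 0.000521) and its neighbour miR-503-5p (-2.23, adjusted p = 0.000555) were also called lower by limma. The GFP-negative libraries thus held more of the seed than the members alone show. All rows with the seed summed to 1172 and 1118 RPM in GFP-negative cells and to 443 and 410 RPM in motoneurons, a 2.68-fold lower mean. The 4 guide members alone summed to 1034 and 876 RPM against 424 and 373 RPM, a 2.40-fold lower mean.

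mmu-miR-16-5p made up most of the seed family everywhere, with 58.8% to 73.1% of its reads. The miR-322-5p share was 11.3% and 21.6% in GFP-negative cells and 4.49% and 8.91% in motoneurons at E10.5. At E12.5 it was 6.42% in motoneurons, 12.7% in V2a and 8.18% in V3.

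**Figure D4:**
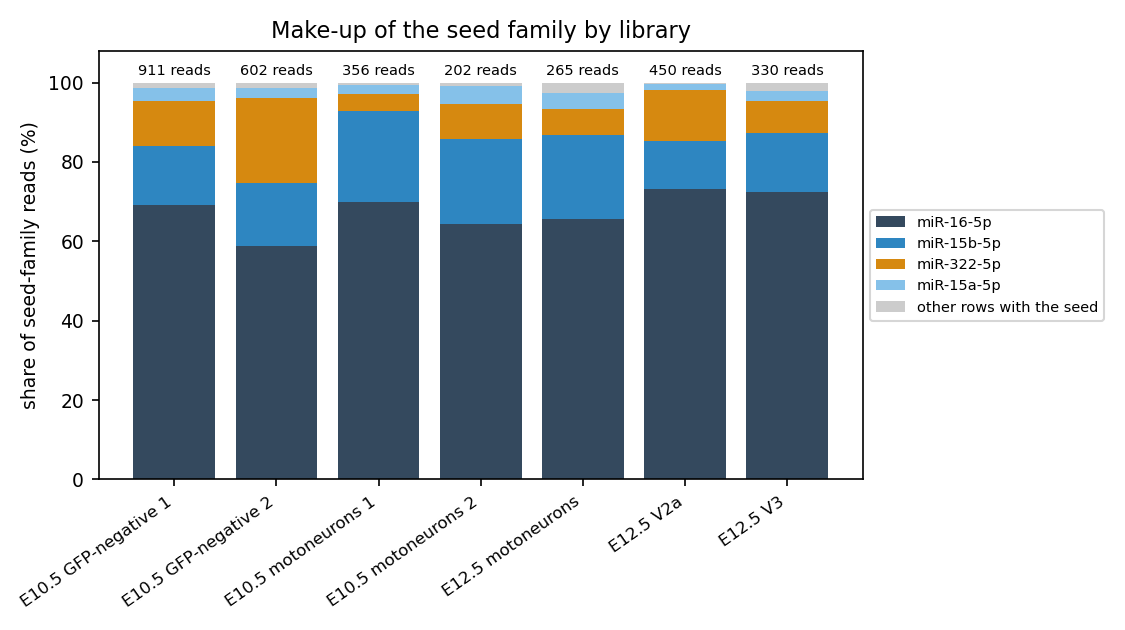
Make-up of all reads with the seed AGCAGCA in each library, in percent, with the number of reads above each bar. miR-16-5p is the largest part of every bar, and miR-322-5p is a larger part of the GFP-negative bars (11.3% and 21.6%) than of the E10.5 motoneuron bars (4.49% and 8.91%).

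The members were set beside other miRNAs tied to growth. All 12 of a list of proliferation-linked miRNAs, including the miR-17 to miR-92a cluster, were tested and called lower in E10.5 motoneurons, where 30.7% of all tested miRNAs were. Their median log2 fold change was -1.03, with a range from -1.54 to -0.59. With median-of-ratios scaling, and likewise with totals taken without the 5 most abundant miRNAs, the calls came down to 7 of 12, and all 12 still had the lower level. This list and the next were chosen with earlier results of these data known, so their counts are a description only. Members of one cluster, such as that of miR-17 to miR-92a, are also not independent of each other. miR-17-5p, a repressor of cell-cycle inhibitors, was at 8251 and 8952 RPM in GFP-negative cells and 3203 and 2879 RPM in motoneurons (log2 fold change -1.50, limma adjusted p = 0.000555). Among 15 growth-restraining miRNAs, to which the present family is usually counted, 10 were tested. Of these 1 was called higher, 5 lower and 4 neither, with a median of -0.59, and with either of those scalings 3 were called higher and 5 lower. The one called higher under the deposited scaling was the neuronal miR-124-3p (95.2 and 74.3 RPM against 445 and 306 RPM, log2 fold change 2.12, limma adjusted p = 0.00181). Those called lower included let-7a-5p (-0.81) and the p53 target miR-34c-5p (-1.48). The members' median of -1.07 lay near that of the proliferation-linked list. At E12.5 the proliferation-linked miRNAs had a median log2 ratio of motoneurons to V2a of -0.40, against -0.42 over all 963 miRNAs compared, and 0 of 12 were over 2-fold lower and 1 over 2-fold higher in motoneurons, where 34.0% of the 963 were over 2-fold lower. Against V3 their median was 0.14, beside 0.25 over all 830 miRNAs compared, with 0 of 12 over 2-fold lower and 3 over 2-fold higher. Of those 830, 20.4% were over 2-fold lower in motoneurons. The share of all miRNAs over 2-fold higher was not taken, so the counts of higher miRNAs have no such measure beside them. Those higher included miR-222-3p (9.73 TPM against 0 in V3) and miR-221-3p (18.6 TPM against 2.53 TPM), both low in V3. For the growth-restraining list the median was 0.13 against V2a, with 2 of 12 over 2-fold lower and 0 higher. Against V3 it was 0.48, with 1 of 11 over 2-fold lower and 3 higher.

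At E12.5 mmu-miR-16-5p was again the most abundant member, and the order of the populations differed from member to member. With 1 library per population there was no test, and the intervals below cover counting error only. miR-218-5p stood at 104198 TPM in motoneurons against 7558 TPM in V2a and 7282 TPM in V3, and the 10 mesenchymal miRNAs summed to 199, 249 and 310 TPM in that order. In the same order the 2 endothelial miRNAs summed to 177, 405 and 174 TPM and the 4 muscle miRNAs to 126, 221 and 63.0 TPM. The 8 blood rows summed to 113, 39.3 and 11.4 TPM, so content of other tissues differed between these libraries. Its part in the members' differences at E12.5 was not tested. mmu-miR-16-5p stood at 49.0 TPM in motoneurons, 73.2 TPM in V2a and 57.5 TPM in V3, from 174, 329 and 239 reads. The motoneuron to V2a ratio was 0.669 (exact 95% interval 0.553 to 0.806) and the motoneuron to V3 ratio 0.852 (0.697 to 1.04), which includes equality. Without the 5 most abundant miRNAs in the totals these ratios were 0.427 and 0.477, so their size depended on the scaling. V2a lay above V3 by 1.27 times (1.08 to 1.51), an order that turned to 0.962 with median-of-ratios scaling.

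mmu-miR-15b-5p was nearly level across populations, at 15.8 TPM in motoneurons, 12.2 TPM in V2a and 11.8 TPM in V3. Its motoneuron to V2a ratio of 1.29 (0.872 to 1.90) and motoneuron to V3 ratio of 1.34 (0.896 to 2.0) included equality. Both ratios lay under 1 when totals were taken without the 5 most abundant miRNAs, at 0.823 and 0.749. mmu-miR-15a-5p had 11, 7 and 8 reads, or 3.10, 1.56 and 1.92 TPM, and no order could be detected at this depth. mmu-miR-195a-5p had 4 reads in motoneurons and 0 in V2a and V3, where up to 3 reads are allowed.

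mmu-miR-15b-3p had the widest spread among the members with reads in every population. It stood at 3.94 TPM in motoneurons, 13.1 TPM in V2a and 8.66 TPM in V3, from 14, 59 and 36 reads. The motoneuron level was 0.30 times that of V2a (0.155 to 0.544) and 0.455 times that of V3 (0.227 to 0.865). Of the 4 members with at least 10 reads in either library, 1 was over 2-fold lower in motoneurons than in V2a, against 34.0% of 963 miRNAs. Against V3 it was again 1 of 4, beside 20.4% of 830 miRNAs. Between V2a and V3, 0 of 3 members were over 2-fold lower in V2a, where 11.4% of 955 miRNAs were. With so few members these counts were not distinguishable from those shares.

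The strands of the Mir15b hairpin shown above therefore came in different proportions. The 5p strand made up 80.0% of the hairpin's mature reads in E12.5 motoneurons (56 of 70 reads, exact 95% interval 68.7% to 88.6%). It made up 48.2% in V2a (55 of 114, 38.8% to 57.8%) and 57.6% in V3 (49 of 85, 46.4% to 68.3%). The motoneuron interval did not overlap either of the others, and those of V2a and V3 overlapped. At E10.5 the share did not separate the groups, at 75.6% and 80.5% in GFP-negative cells and 81.0% and 74.1% in motoneurons (log2 difference of the strand ratio -0.03, exact permutation p = 1). These shares lie within a library and do not depend on its scaling.

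**Figure D5:**
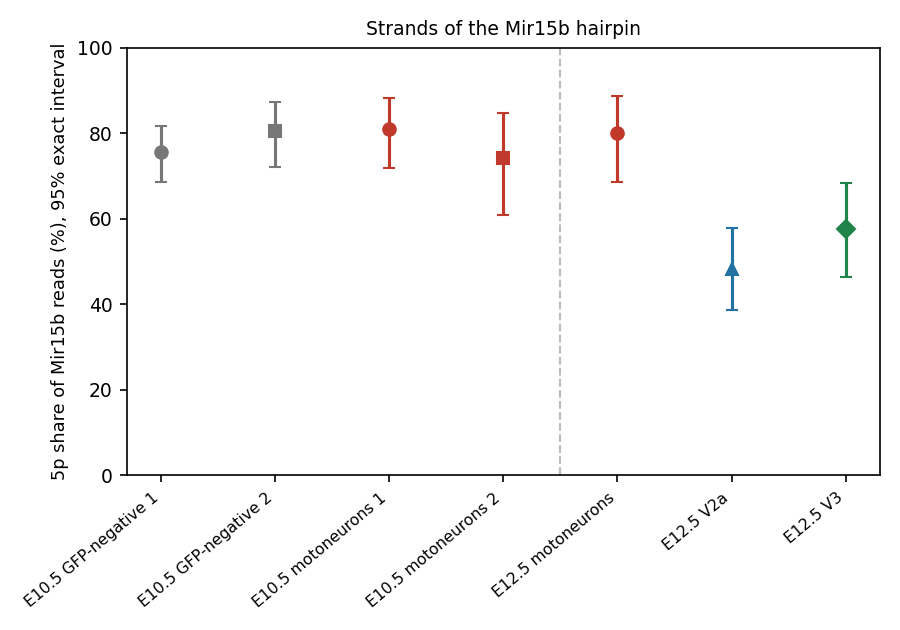
Share of miR-15b-5p among all mature reads of the Mir15b hairpin in each library, in percent with exact 95% intervals. The E12.5 V2a (48.2%) and V3 (57.6%) points lie below the other 5 libraries, which run from 74.1% to 81.0%. Those 5 are all from Hb9::gfp embryos, so cell type cannot be told apart from mouse line and reporter.

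The ratio of mmu-miR-16-5p to mmu-miR-15b-5p at E12.5 was 3.11 in motoneurons, 5.98 in V2a and 4.88 in V3. Put as the miR-16-5p share of both miRNAs, motoneurons had 75.7% (exact 95% interval 69.6% to 81.1%) and V2a 85.7% (81.8% to 89.0%), which did not overlap, while V3 had 83.0% (78.1% to 87.1%). Of reads specific to 1 locus, the Dleu2 locus gave 41.1% in motoneurons, 37.4% in V2a and 24.1% in V3. Motoneurons thus had the lowest ratio of the main guide strands at each stage, but not the lowest Dleu2 share at E12.5. Their interval of the miR-16-5p share overlapped that of V3. At E10.5 the intervals of both motoneuron libraries (70.4% to 80.0% and 68.0% to 81.4%) overlapped those of both GFP-negative libraries (79.3% to 84.9% and 74.8% to 82.5%). Cell type at E12.5 also cannot be told apart from mouse line and reporter. miR-16-1-3p was lowest in V3, with 39 reads in motoneurons, 60 in V2a and 19 in V3. Its ratio to V3 was 2.40 (1.36 to 4.4) in motoneurons and 2.92 (1.72 to 5.19) in V2a, and motoneurons over V2a gave 0.822 (0.535 to 1.25).

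Summed over the 4 guide members, E12.5 motoneurons stood at 69.0 TPM, V2a at 87.0 TPM and V3 at 71.2 TPM. The ratio of motoneurons to V2a was 0.793 (0.673 to 0.932) and that to V3 was 0.969 (0.815 to 1.15). Without the 5 most abundant miRNAs in the totals they were 0.507 and 0.543. From the opposite strand of Mir195a, miR-195a-3p had 5, 10 and 26 reads in motoneurons, V2a and V3. mmu-miR-195a-5p had 4, 0 and 0, which may be affected by its likeness to mmu-miR-16-5p, and the strands gave no order in motoneurons. The motoneuron to V3 ratio of miR-195a-3p was 0.225 (0.0675 to 0.596).

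The miRNAs most like the members in pattern were found by the root mean square difference of log2 levels over the 7 libraries, centred within each stage, among 401 others. The closest to mmu-miR-16-5p were miR-148a-3p (0.093), miR-106a-5p (0.12) and miR-26b-5p (0.13), against a median of 0.65 over all 401. For mmu-miR-15b-5p they were let-7a-5p (0.14), miR-19b-3p (0.14) and miR-127-3p (0.15), and for mmu-miR-15b-3p miR-7667-5p (0.23), miR-497b (0.26) and miR-93-5p (0.29). Between the strands of Mir15b the difference was 0.55, larger than the 0.31 between mmu-miR-16-5p and mmu-miR-15b-5p. mmu-miR-15a-5p and mmu-miR-195a-5p were too scarce for this comparison.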

How the data were processed

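Sorted spinal cells were lysed for total RNA and small RNA libraries were sequenced on Illumina HiSeq instruments, per the labels' protocols. The submitters' processing notes name Bowtie2. Its version, the counting program and the build were not given in the sources used here. As the authors deposited them, E10.5 values are RPM. For E12.5 the header states no unit. The authors deposited what the values show to be FPKM, made by dividing reads by length and depth: multiplied by mature length, they fall on 1 step per library. Each library was rescaled to TPM. The 5 members and all lists were chosen with earlier results of these data known.

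The main test was limma 3.58.1 (R 4.3.3) on log2(RPM + 1) of the E10.5 libraries, two-sided, with a mean-variance trend and Benjamini-Hochberg adjustment over 492 miRNAs with 15.2 RPM or more, the value of 10 reads at median depth, in 2 or more libraries. This scale understates changes of low miRNAs. Reads were recovered by dividing each value by that of 1 read; intervals are exact 95% binomial or conditional binomial ones and cover counting error only. At E12.5 the 2-fold limit and the minimum of 10 reads in either library were chosen after the data were seen. Named miRNAs were the members, all miRNAs with their seed, the other strands of their hairpins and clusters, and the 3 closest in pattern to each member. The cell-cycle miRNAs named were chosen after their values were seen. Older names in the tables were matched to current ones by hand. Fits were tested on simulated data. The planned count-based test was not used, because reads shared between similar miRNAs did not come out whole.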

Additional observations from a re-analysis of the deposited data

How the results depend on the processing

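The E10.5 fit was repeated under 12 alternatives, and all 4 tested members had lower levels in motoneurons under each. Members called lower numbered 2 under the deposited scaling and 1 with median-of-ratios scaling, with totals without the 5 most abundant miRNAs and without the abundance filter. With 1 library left out the count ran from 1 to 2, a lone library being assumed to vary like the other group. Across those 4 fits mmu-miR-15b-5p lost its call each time. With the replicate block the count stayed at 2 and it changed no member's call (mmu-miR-15b-5p adjusted p = 0.0285); deviations of same-numbered libraries had a correlation of 0.26 across 492 miRNAs, and with only 2 pairs the numbers do not establish pairing. The log2 ratio of the summed guide strands at E10.5 moved from -1.26 to -0.93 with median-of-ratios scaling and to -0.89 without the 5 most abundant miRNAs. At E12.5 the summed guides in motoneurons over V2a moved from 0.793 to 0.507 without the 5 most abundant miRNAs; in motoneurons over V3 from 0.970 to 0.543, and to 0.814 with median-of-ratios scaling. Under median-of-ratios scaling V2a over V3 reversed, from 1.22 to 0.923 for the sum and from 1.27 to 0.962 for mmu-miR-16-5p. The cause was not tested. With a pseudocount of 10 TPM mmu-miR-15b-3p in motoneurons over V2a was 0.603 in place of 0.30. Without the 5 most abundant miRNAs mmu-miR-16-5p in motoneurons was 0.427 of V2a and 0.477 of V3. The number of all tested miRNAs called lower was 151 and called higher 57; the split was 116 lower and 94 higher with median-of-ratios scaling and 116 and 105 without the 5 most abundant, and those called higher numbered 34 without the filter, and 29 and 27 without the first and second motoneuron library. Depth limits mmu-miR-15a-5p and mmu-miR-195a-5p most, and the planned count-based test was not run.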
